A study of Mus musculus with 7 samples.

Results

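Embryoid bodies titled pKO, for deletion of the promoter of the long noncoding RNA Meteor, were compared with embryoid bodies titled WT on day 4 of differentiation. All came from the mouse embryonic stem cell line R1. Members were taken by title and made up 4 of the 7 libraries of the series: WT1 and WT2 on one side, pKO1 and pKO2 on the other. The genotype field contradicts all 4 of these titles: it gives a Meteor promoter knockout for WT1 and WT2, a promoter inversion for pKO1 and wild type for pKO2. Every direction below therefore holds for the libraries as titled. The other libraries were titled pInv (wild type in the genotype field), Ctrl (an empty vector) and KD (a CRISPR/dCas9 knockdown of Meteor), with 1 library each, and their levels are given only beside those of the 4. Cells of all groups were cleared of feeder fibroblasts by 20 min on gelatin, grown as hanging drops of 500 cells in 27 µl of serum medium without Lif, pooled on day 2 and collected on day 4. The labels say nothing of the extent of the deletion, of whether both alleles carry it, of whether a line is 1 clone, or of whether libraries 1 and 2 of a group were grown separately. The p-values thus measure only how far these libraries spread, which may be technical.

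Eomes encodes a T-box transcription factor that cells of the primitive streak need to form definitive endoderm and the first mesoderm, and Meteor is transcribed from a regulatory locus beside it. Embryoid bodies are free-floating aggregates in which stem cells deprived of Lif leave pluripotency, pass through an epiblast-like state and switch on streak genes such as T and Mixl1. The series' title names the regulation of Eomes levels by the Meteor locus, and the comparison asks what polyadenylated RNA looks like when the promoter of that locus is removed.

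Expression was read from the 3′ end of transcripts and is given as CPM, counts scaled to a common library size, with TMM (a trimmed mean of ratios between libraries) as the scaling. Expected counts per library summed to 1898350 to 2564478, so that 1 count was worth 0.375 to 0.600 CPM, and 13111 to 13923 features had a count. A single feature without a name in the reference table took 17.4% to 24.1% of the counts. Library WT2 stood apart. Each library was set against the median of all other libraries of the series, over 4682 genes with a series mean of 20 CPM or more. In WT2, 436 genes were at least 2-fold below that median and 117 at least 2-fold above it. The counts were 13 and 9 in WT1, 11 and 6 in pKO1 and 96 and 17 in pKO2. Genes low in WT2 included streak genes: T stood at 294 and 54.6 CPM in WT1 and WT2 and at 226 and 353 CPM in pKO1 and pKO2, Mixl1 at 99.0 and 7.20 against 92.7 and 52.1 CPM, and Mesp1, a factor of nascent mesoderm, at 79.1 and 10.8 against 67.8 and 127 CPM. Eef1a1, an abundant translation factor that every cell uses, was low there too, at 4621 and 887 against 5370.0 and 1663 CPM. In bulk RNA, fewer cells of a type and less RNA per cell cannot be told apart.

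No row of the files carries the name Meteor. The row named Platr11, a noncoding RNA that RefSeq places next upstream of Eomes, had 9 counts in WT1 and 2 in WT2 and 0 in pKO1 and pKO2. The exact Poisson 95% intervals were 4.12 to 17.1 counts in WT1 and 0.242 to 7.22 in WT2. In CPM, WT1 stood at 3.37 and WT2 at 1.2, while the limit that a count of 0 allows (3 counts) was 1.43 in pKO1 and 1.23 in pKO2. Summed over the group, there were 11 counts in the libraries titled WT, 9 of them in WT1, against 0 in those titled pKO. With the WT counts taken as measured and the pKO group set at the floor of 3 counts, the row was at least 3.83-fold higher in WT. pInv and Ctrl had 0 counts and KD had 2. These limits cover counting error alone. The row was too low to pass the filter and was not tested, the labels do not tie it to Meteor, and it overlaps 4933432G23Rik, which stood at 85.1 and 167 against 102 and 133 CPM. Of the 4 libraries, those with Platr11 counts are the ones titled WT, whose genotype field reads promoter knockout.

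Eomes itself was near the same level on both sides. It stood at 459 and 312 CPM in WT1 and WT2 and at 337 and 445 CPM in pKO1 and pKO2, which gives 385 ± 104 CPM (SD, n = 2) in WT and 391 ± 76.0 CPM (SD, n = 2) in pKO. The sides overlapped, with WT1 the highest of the 4 and WT2 the lowest. The log2 difference, pKO minus WT, was 0.02 (SE 0.30), and the quasi-likelihood test of edgeR gave it a p of 1 after Benjamini-Hochberg adjustment. pInv, Ctrl and KD stood at 390.0, 421 and 399 CPM. Of the 9 tested genes at the Eomes locus, 3 were higher and 6 lower in pKO, with a median log2 difference of −0.09.

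Across the transcriptome no gene passed. Of 10265 genes tested with edgeR's quasi-likelihood test, 0 (0%) had an adjusted p under 0.05, the smallest adjusted p was 1, and 106 (1.03%) had an unadjusted p under 0.05, where 5% of 10265 is 513. Of these 106 genes, 52 were higher and 54 lower in pKO. Among all tested genes 5053 were higher, 5151 were lower and the median log2 difference was −0.0017. In 1231 genes (12.0%) both pKO libraries stood above both WT libraries, and in 1321 genes (12.9%) both stood below. These are the genes called apart below, which is a description and not a test, and a list's count of apart genes is to be read against these shares. At a ratio of group means of 2 or more, 228 of them were higher and 191 lower, and at 1.5 or more 538 were higher and 526 lower.

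**Figure D1:**
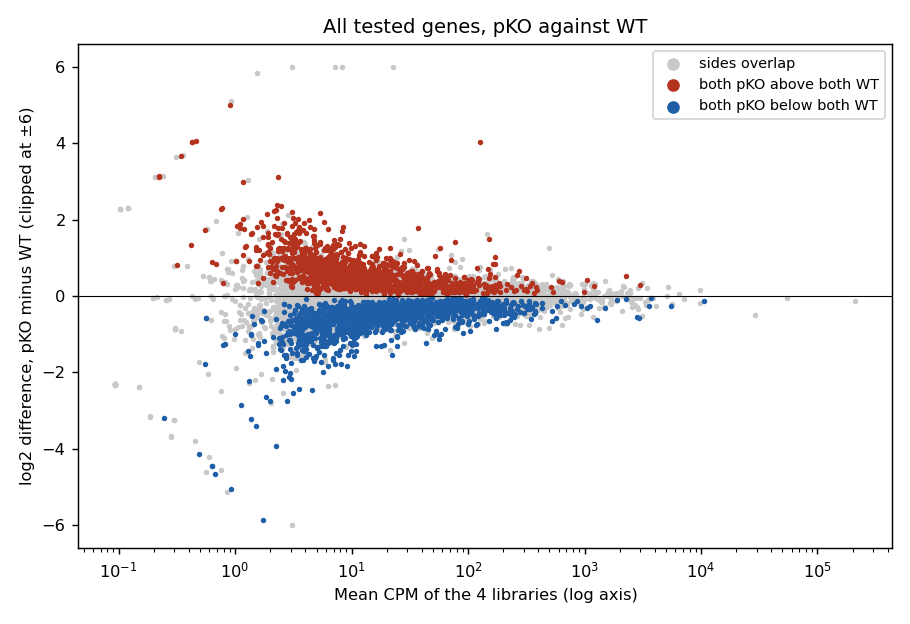
Each point is 1 of the 10265 tested genes, with the mean CPM of WT1, WT2, pKO1 and pKO2 on a log axis and the log2 difference, pKO minus WT, on the other axis, clipped at ±6. Red points (1231) have both pKO libraries above both WT libraries, blue points (1321) both below, and grey points overlap; no gene passed the test.

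Leaving out a library let a few rows pass. Without pKO1, 4 rows passed, among them Gstp1, which had 28.7 CPM in pKO2 and 0 in the other 3 libraries, Gm4425, and a further copy of a repeated small RNA. Without pKO2, 7 rows passed, Rn4.5s and 6 more copies of that repeat. Rows of such copies share reads and their counts are uncertain, and no row passed without WT1 or without WT2. With no filter on low counts, 9 of 16702 rows passed the edgeR test, among them Fn1 (adjusted p = 0.0105) and 2210408I21Rik (adjusted p = 0.0115), whose values follow.

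Genes are named here mostly from those apart at a mean of 5 CPM or more, in order of their unadjusted p. Others were taken for the gap between their sides or as members of a gene list. Each had an adjusted p of 1 in edgeR's test. The first among those higher in pKO was Spin2d, an X-linked gene of the spindlin family, whose members read methylated histones. It stood at 42.4 and 41.4 CPM in WT1 and WT2 and at 123 and 99.3 CPM in pKO1 and pKO2. The pair of WT libraries nearly coincided and both pKO libraries were more than 2-fold above them, with a log2 difference of 1.41 (SE 0.28) and an unadjusted p of 0.00112. pInv and Ctrl were near pKO, at 95.5 and 116 CPM, and KD was below WT at 27.7 CPM. Spin2d has close relatives on the X chromosome with which reads may be shared. 2210408I21Rik, an uncharacterised gene, stood at 20.6 and 12.0 CPM in WT1 and WT2 and at 56.8 and 58.3 CPM in pKO1 and pKO2, a log2 difference of 1.79 (SE 0.36) and an unadjusted p of 0.00117. Its sides lay far apart, with Ctrl at 56.9 CPM beside the pKO libraries and pInv at 35.2 CPM between the sides.

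Rian, a maternally expressed noncoding RNA of the imprinted Dlk1–Dio3 region, stood at 118 and 106 CPM in WT1 and WT2 and at 246 and 208 CPM in pKO1 and pKO2. The mean of the pKO libraries was 2.03 times that of the WT libraries and the sides did not overlap, with a log2 difference of 1.02 (SE 0.26) and an unadjusted p of 0.00495. Ctrl, pInv and KD stood at 187, 203 and 301 CPM, all above both WT libraries. Rian's neighbours in that region were then read as well, a step chosen after its values had been seen. Of the 70 rows of the region 8 were tested, Rian included, and 6 were higher in pKO. Apart were 4 with pKO higher and 0 with pKO lower, against 12.0% and 12.9% of all genes. The 4 include Rian, whose gap led to the region, and neighbouring rows of a cluster need not be independent. The apart rows besides Rian were Mir136 at 14.6 and 18.6 against 38.2 and 32.4 CPM, the small nucleolar RNA AF357425 at 4.12 and 4.20 against 10.5 and 11.1 CPM, and a row that merges Mirg with Mir410 and Mir412 at 83.2 and 144 against 170 and 199 CPM. The row that merges Meg3, the first noncoding RNA of the same cluster, with 3 miRNAs overlapped, at 1451 and 4709 against 2504 and 3410 CPM, and WT1 and WT2 marked its lowest and highest level. Mir1188, Mir300 and Mir673 overlapped as well.

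Rows named for a miRNA do not measure the mature miRNA here, since polyadenylated RNA was read from its 3′ end. The row of the small nucleolar RNA AF357425 spans 2069 bases, and whether its reads come from that RNA was not tested. The row of Mir136 spans 2062 bases while its RefSeq hairpin has 62, and 420 of 842 matched miRNA rows exceed their hairpin by 2000 bases. The mature sequences are shown so that the small annotated part of that row can be seen, from RefSeq on GRCm38.p6, both on the plus strand, at chr12:109595331-109595352 for the 5p arm and chr12:109595366-109595387 for the 3p arm, with the seed (bases 2 to 8) in capitals.
mmu-miR-136-5p: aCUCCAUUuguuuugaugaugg
mmu-miR-136-3p: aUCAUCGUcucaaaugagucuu

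Several genes of the cell surface, the cytoskeleton and the matrix stood among those higher in pKO. Ahnak, a giant scaffold protein under the plasma membrane, was at 3.75 and 3.60 CPM in WT1 and WT2 and at 15.3 and 11.1 CPM in pKO1 and pKO2, a log2 difference of 1.82 (SE 0.46). Fn1, the matrix glycoprotein fibronectin, was at 125 and 31.8 CPM in WT1 and WT2 and at 173 and 269.6 CPM in pKO1 and pKO2, a log2 difference of 1.48 (SE 0.56). Both WT libraries of Fn1 lay below both pKO libraries, yet WT1 was nearer to pKO1 than to WT2, and KD exceeded all of them at 592 CPM. Cnn2, an actin-binding calponin, stood at 15.7 and 13.2 against 27.2 and 29.1 CPM and Capn2, a calcium-dependent protease, at 10.9 and 10.2 against 19 and 23.8 CPM. Adgrl2, an adhesion receptor of the latrophilin family, stood at 49.5 and 50.4 against 66.4 and 66.1 CPM, with little spread within either side. Fn1 and Adgrl2 were taken for their gap, and choosing by gap favours a small spread. Their unadjusted p in edgeR's test was 0.0303 and 0.175.

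Notch1, a receptor of the Notch pathway, stood at 13.5 and 15 CPM in WT1 and WT2 and at 27.2 and 30.0 CPM in pKO1 and pKO2, a log2 difference of 1.01 (SE 0.34). Ctrl (15.2 CPM) and pInv (11.9 CPM) lay with WT, and KD at 35.1 CPM lay with pKO. Spink1, a secreted inhibitor of serine proteases, was at 4.50 and 3.0 against 13.4 and 11.9 CPM, a log2 difference of 1.70 (SE 0.48). Both WT libraries had a few counts of it, and Ctrl lay near them at 5.58 CPM.

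The remaining genes with small p had roles that did not group. Cep192, a centrosomal scaffold, stood at 5.25 and 7.20 against 16.2 and 14.4 CPM. The row of Rmrp, the RNA of the RNase MRP complex, spans 2275 bases, and whether its reads come from that RNA was not tested. It stood at 7.50 and 7.20 against 14.3 and 18.5 CPM. Dnajb12, a co-chaperone of the endoplasmic reticulum, stood at 3.37 and 4.20 against 11.5 and 9.44 CPM. In each of these the WT libraries lay closer to each other than to either pKO library, and Rmrp was at 8.06 CPM in pInv, near WT. Pex5l, a relative of the peroxisomal import receptor, was the most abundant of them, at 108 and 137 against 187 and 251 CPM. Gm3636, a predicted gene with near-identical copies that share its reads, stood at 2.25 and 3.60 against 6.69 and 12.7 CPM. Among genes at 50 CPM or more, those with the widest gap included the RNA-binding protein gene Rbms1, at 66.7 and 29.4 against 97.0 and 90.7 CPM, whose WT libraries differed more from each other than its pKO libraries did. The pseudogene Gm8624 stood at 254 and 173 against 334 and 342 CPM, and the row of Mir101c at 50.2 and 31.2 against 66.9 and 66.5 CPM. In both, the pKO libraries nearly coincided and WT2 was the lowest of the 4.

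**Figure D2:**
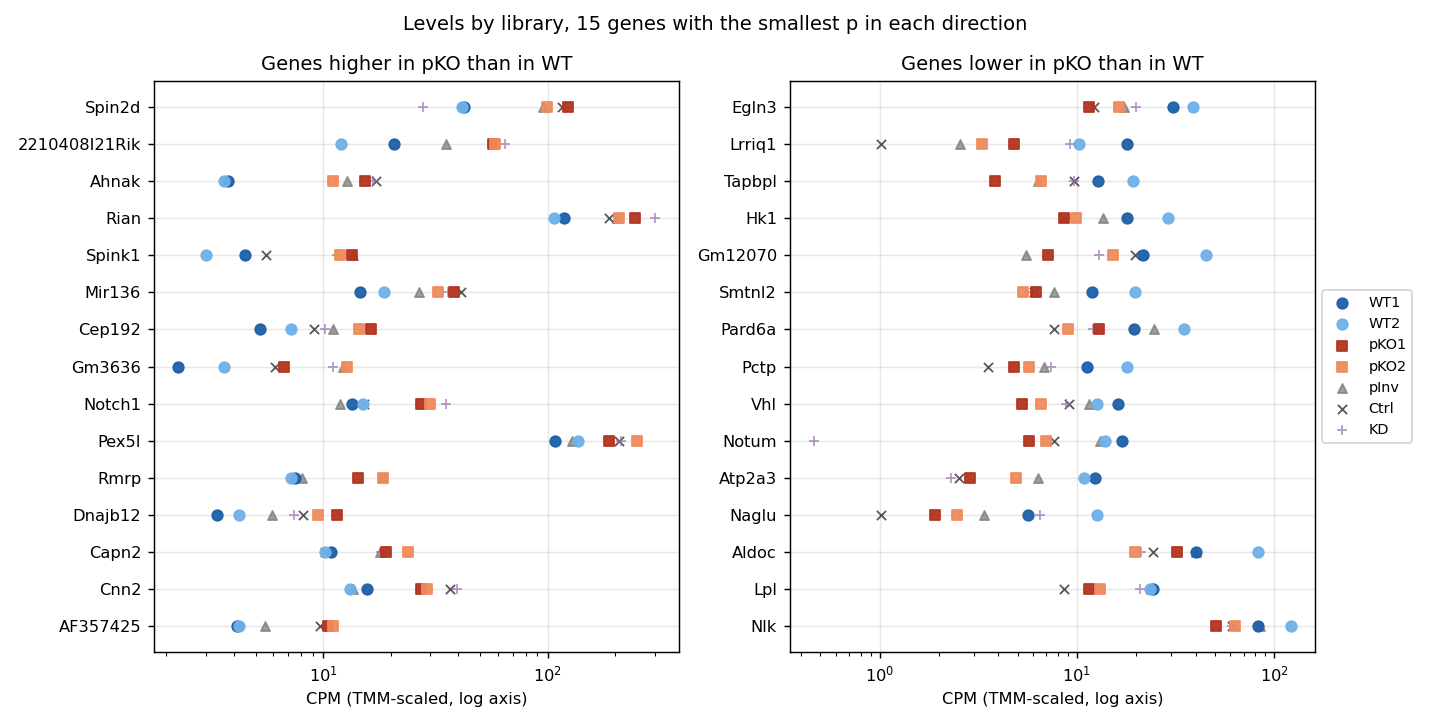
Level in CPM on a log axis (scaled by TMM) of the 15 genes with the smallest p in each direction, 1 row per gene and 1 symbol per library. Blue circles are WT1 and WT2, red and orange squares pKO1 and pKO2, and grey, black and purple marks pInv, Ctrl and KD in that order. In Spin2d the WT libraries sit at 42.4 and 41.4 and the pKO libraries at 123 and 99.3 CPM; libraries at 0 cannot be drawn on the log axis.

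Oxygen-sensing and glycolytic genes made up 4 of the 15 genes with the smallest p on the lower side: Egln3, Hk1, Vhl and Aldoc. In normal oxygen, prolyl hydroxylases of the EGLN family mark the subunit HIF1A for the VHL ubiquitin ligase, which has it destroyed. When oxygen is short, HIF1A persists and raises glycolytic enzymes, glucose and lactate transporters, and EGLN1 and EGLN3 themselves. Egln3 came first by p among the apart genes lower in pKO and stood at 30.7 and 39.0 CPM in WT1 and WT2 and at 11.5 and 16.4 CPM in pKO1 and pKO2, a log2 difference of −1.31 (SE 0.37) and an unadjusted p of 0.00795. Both WT libraries were above both pKO libraries, and Ctrl, pInv and KD lay nearer to pKO, at 12.2, 17.4 and 19.9 CPM. Egln1 stood at 28.1 and 24.0 against 16.7 and 18.1 CPM. Vhl, the substrate-binding subunit of the ligase, was apart in the same direction at 16.1 and 12.6 against 5.25 and 6.57 CPM, a log2 difference of −1.28 (SE 0.44). Hif1a showed no gap, at 60.3 and 58.8 against 60.7 and 56.6 CPM.

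Enzymes of glycolysis lay on the same side. Hk1, a hexokinase that phosphorylates glucose at the start of the pathway, stood at 18.0 and 28.8 CPM in WT1 and WT2 and at 8.60 and 9.85 CPM in pKO1 and pKO2, a log2 difference of −1.32 (SE 0.41). Aldoc, an aldolase, stood at 40.1 and 82.8 against 32.0 and 19.7 CPM, with WT1 closer to pKO1 than to WT2. Gapdh, the glyceraldehyde phosphate dehydrogenase, stood at 1562 and 1528 CPM in WT1 and WT2 and at 936 and 1055 CPM in pKO1 and pKO2, a log2 difference of −0.63 (SE 0.25). Its libraries were close within each side, but pInv was above WT at 1827 CPM and Ctrl lay between the sides at 1139.7 CPM. Pfkfb3, which makes the sugar phosphate that speeds glycolysis, was at 13.5 and 21.0 against 8.60 and 10.3 CPM, and Vegfa, the angiogenic growth factor, at 6.37 and 8.40 against 5.73 and 6.15 CPM.

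Of the 32 tested genes of the hypoxia and glycolysis list, 30 were lower and 2 higher in pKO, 7 were apart with pKO lower against 12.9% of all genes, 0 were apart with pKO higher, and 0 passed the adjusted test. The list's median log2 difference was −0.44, against −0.0017 over all tested genes. An unadjusted p under 0.05 was reached by 4 of them. The genes apart were Egln3, Hk1, Aldoc, Gapdh, Pfkfb3, Egln1 and Vegfa. The others overlapped. The lactate exporter Slc16a3, for example, stood at 321 and 729 against 237 and 343 CPM, Ndrg1 at 52.1 and 20.4 against 24.4 and 22.6 CPM, and the glycolytic enzyme Tpi1 at 460.3 and 131 against 289 and 149.8 CPM. In Slc16a3 WT2 was the highest of the 4 and in Ndrg1 and Tpi1 the lowest. The genes higher in pKO were P4ha1 and Hk2, with log2 differences of 0.10 and 0.04.

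The list's level in a library was taken as the median over its members of log2(CPM + 1) minus the gene's mean over the 4 libraries. It was 0.12 in WT1, 0.28 in WT2, −0.27 in pKO1 and −0.11 in pKO2. The sides did not overlap in this measure, which is a description of chosen genes. pInv, Ctrl and KD stood at −0.14, −0.24 and −0.18, within the range of the pKO libraries and not that of WT. Without WT2, the library that stood apart, the list's median log2 difference was −0.29, and without WT1, pKO1 or pKO2 it was between −0.38 and −0.54.

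**Figure D3:**
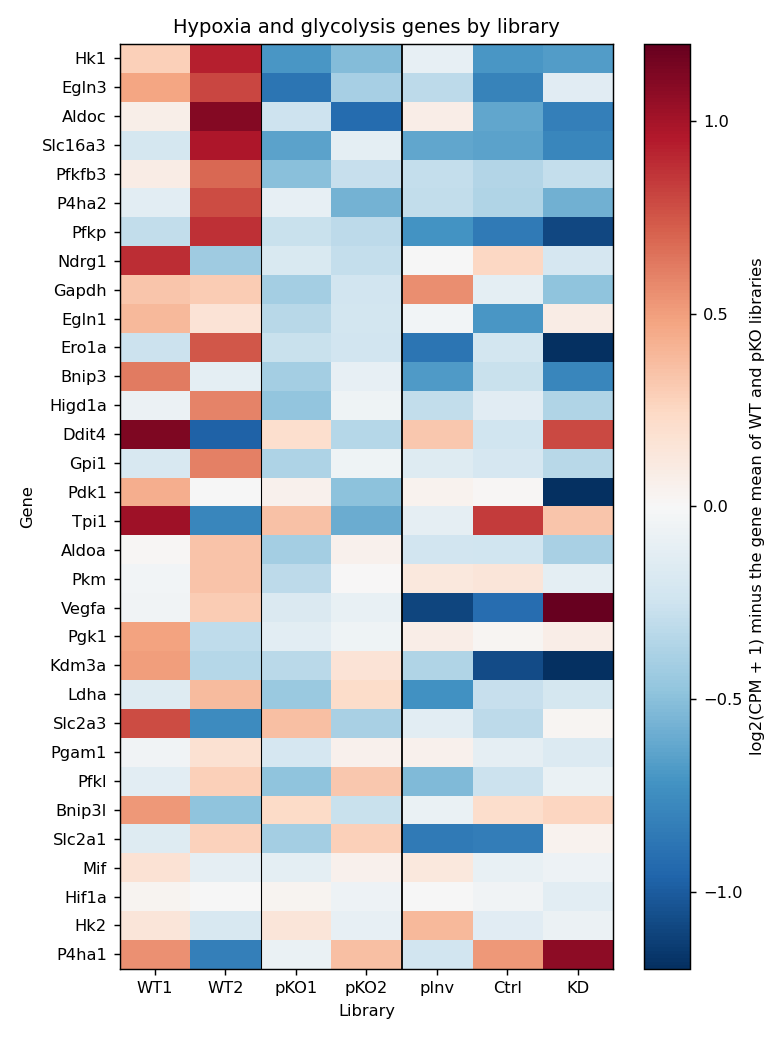
Each row is 1 of the 32 tested genes of the hypoxia and glycolysis list and each column a library; the colour is log2(CPM + 1) minus the gene's mean over WT1, WT2, pKO1 and pKO2, with the colours ending at ±1.2. Egln3, Hk1, Aldoc, Gapdh, Pfkfb3, Egln1 and Vegfa are lower in both pKO1 and pKO2 than in WT1 and WT2, while Ddit4 and Tpi1 show WT1 and WT2 on opposite sides.

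The promoters of the hypoxia and glycolysis genes were also searched for a known motif. ACGTG is the core of the hypoxia response element to which HIF1A binds; it was searched on both strands, where its reverse complement reads CACGT, and it overlaps the CACGTG E-box of other factors. In the RefSeq promoter table of GRCm38.p6, which gives 250 bases before and 50 after each gene's start, 19.6% of 32851 promoters hold it. Counted by gene, 29.9% of 8062 tested genes with a promoter entry had it, as did 23 of the 29 list genes with an entry (79.3%) and 7 of the 7 apart genes. Within the 250 bases before the start alone, no listed start of Hk1, Aldoc or Gapdh holds it, nor does 1 of the 2 starts of Vegfa. A second form, GCGTG, was held by 57% of the tested genes and by 19 of the 29 list genes (65.5%). The list was drawn up of genes known to respond to hypoxia, and a match is a description of letters, not of binding. The bases before the start of both hydroxylases and of the first Pfkfb3 start are shown 5′ to 3′ on the gene's strand, which is the minus strand for each, with the motif in capitals: Egln3 at chr12:54203875-54204124, Egln1 at chr8:124949255-124949504 and Pfkfb3 at chr2:11553930-11554179. The motif begins 229 bases before the start in Egln3, 68 in Egln1 and 60 in Pfkfb3.
Egln3: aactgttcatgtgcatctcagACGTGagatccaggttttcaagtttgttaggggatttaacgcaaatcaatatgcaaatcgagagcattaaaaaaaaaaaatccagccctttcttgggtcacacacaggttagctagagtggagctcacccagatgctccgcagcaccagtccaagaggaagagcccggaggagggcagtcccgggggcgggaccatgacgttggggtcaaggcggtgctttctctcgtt
Egln1: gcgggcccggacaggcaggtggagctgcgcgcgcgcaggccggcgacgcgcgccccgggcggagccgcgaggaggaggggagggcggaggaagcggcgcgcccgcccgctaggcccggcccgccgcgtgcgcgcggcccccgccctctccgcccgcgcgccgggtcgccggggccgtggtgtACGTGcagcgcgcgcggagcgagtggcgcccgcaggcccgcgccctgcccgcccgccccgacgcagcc
Pfkfb3: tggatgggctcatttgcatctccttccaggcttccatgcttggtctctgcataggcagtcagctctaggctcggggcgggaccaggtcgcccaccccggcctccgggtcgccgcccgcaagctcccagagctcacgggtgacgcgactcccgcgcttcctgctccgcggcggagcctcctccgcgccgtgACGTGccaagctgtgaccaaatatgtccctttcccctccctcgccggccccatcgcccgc

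Some regulators of WNT signalling were also among the apart genes lower in pKO. Notum, a secreted enzyme that strips the lipid from WNT proteins, stood at 16.9 and 13.8 CPM in WT1 and WT2 and at 5.73 and 6.98 CPM in pKO1 and pKO2, a log2 difference of −1.27 (SE 0.44). Ctrl lay near pKO at 7.61 CPM, pInv near WT at 13.2 CPM, and KD had 0.462 CPM, the value of 1 count. Nkd1, an intracellular inhibitor of the pathway, stood at 4.87 and 6.0 against 3.34 and 3.28 CPM and the ligand Wnt3 at 78.3 and 72.6 against 67.8 and 71.4 CPM. Nlk, a kinase that acts on TCF/LEF factors, stood at 83.2 and 122 CPM in WT1 and WT2 and at 50.6 and 63.6 CPM in pKO1 and pKO2, a log2 difference of −0.84 (SE 0.31). Of the 16 tested WNT ligands and targets 8 were higher and 8 lower. With 3 apart and lower, against 12.9% of all genes, and 0 apart and higher, the list had a median of −0.03, and none passed the edgeR test (0 with an adjusted p under 0.05).

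The other genes with small p on the lower side had varied roles. Tapbpl, a relative of tapasin that edits peptides on MHC class I, stood at 12.7 and 19.2 against 3.82 and 6.57 CPM. Lpl, lipoprotein lipase, stood at 24.4 and 23.4 against 11.5 and 13.1 CPM, with pInv at 23.8 CPM beside WT. Pard6a, a scaffold of cell polarity, stood at 19.5 and 34.8 against 12.9 and 9.03 CPM. In Tapbpl and Pard6a WT2 was the highest of the 4, while the WT libraries of Lpl lay together. Atp2a3, a calcium pump of the endoplasmic reticulum, stood at 12.4 and 10.8 against 2.87 and 4.92 CPM. Pctp, a carrier of phosphatidylcholine, stood at 11.2 and 18.0 against 4.78 and 5.74 CPM. Naglu, a lysosomal enzyme, stood at 5.62 and 12.6 against 1.91 and 2.46 CPM, only a few counts in each pKO library. Lrriq1, a leucine-rich repeat gene, stood at 18.0 and 10.2 against 4.78 and 3.28 CPM and Smtnl2, of the smoothelin family, at 12.0 and 19.8 against 6.21 and 5.33 CPM. The pseudogene Gm12070 completed the 15, at 21.7 and 45 against 7.17 and 15.2 CPM. In Ctrl several of them were below the lower pKO library: Lrriq1 at 1.02, Pctp at 3.55, Atp2a3 at 2.54, Naglu at 1.02 and Lpl at 8.63 CPM.

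Among genes at 50 CPM or more, those with the widest gap on the lower side were mostly close within each side. Hes6, a factor of the Hes family, stood at 57.7 and 58.2 against 43.5 and 43.9 CPM. Tufm, the mitochondrial elongation factor, stood at 60.3 and 62.4 against 46.8 and 47.2 CPM. Ing2, a reader of methylated histone H3, stood at 67.1 and 71.4 against 50.2 and 45.5 CPM. In these 3 genes the difference between sides exceeded the difference within them, which choosing genes by their gap favours. Pttg1, or securin, which holds back the separation of sister chromatids, was at 84.7 and 94.8 against 65.0 and 63.2 CPM. Grhpr, a reductase of glyoxylate, was at 91.8 and 83.4 against 55.4 and 65.2 CPM and the transcription factor Foxp1 at 102 and 149 against 76.9 and 72.6 CPM.

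In the primitive streak, nascent mesoderm, definitive endoderm and neuroectoderm lists the library WT2 had the lowest level, which it did not in the smaller lists of lateral plate and vascular genes. Of the 16 tested primitive streak genes 12 were higher in pKO, with a median log2 difference of 0.10. But 1 gene was apart, Wnt3, and it was lower, as were 12.9% of all genes. Their level was 0.46 in WT1, −1.01 in WT2, 0.07 in pKO1 and 0.19 in pKO2, so WT1 and WT2 enclosed both pKO libraries. Lhx1, a homeobox factor of the streak and early endoderm, stood at 531 and 58.2 against 521 and 884 CPM, and Foxa2, a forkhead factor of endoderm and axial mesoderm, at 311 and 84.6 against 198 and 204 CPM. Without WT2 the median of the streak list was −0.13, and without WT1 it was 1.21.

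Nascent and paraxial mesoderm genes behaved likewise: 11 of 14 were higher in pKO and their median was 0.54. Of the 14, 2 were apart with pKO higher, against 12.0% of all genes, and 0 with pKO lower, against 12.9%. Those apart were Cyp26a1, which degrades retinoic acid, at 22.1 and 4.20 against 24.4 and 25.9 CPM, and Msgn1, a factor of paraxial mesoderm, at 0.375 and 0 against 1.43 and 1.23 CPM, which is at most a few counts in any of the 4 libraries. The level of the list was 0.51 in WT1, −0.90 in WT2, 0.0029 in pKO1 and 0.62 in pKO2, and it reached 1.93 in KD. The median was 2.61 without WT1, 0.071 without WT2 and 0.034 without pKO2. Of 5 tested genes of vascular and blood progenitors 1 was higher and 4 lower in pKO, with a median of −0.65. In each direction 1 was apart, against 12.0% higher and 12.9% lower over all genes. Kdr, the VEGF receptor of these progenitors, was the higher one, at 18.0 and 6.60 against 20.5 and 39.8 CPM. Etv2, a factor that specifies them, was the lower one, at 23.6 and 25.8 against 21.0 and 21.7 CPM. Most of the 5 genes' summed level, 47.2 and 40.2 against 43.9 and 63.6 CPM, came from Kdr and Etv2. The median thus rests on genes of few counts, and without the filter on low counts it was 0.19. Of lateral plate and cardiac mesoderm genes 3 were tested, and their median was 0.17.

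Definitive endoderm genes, of which 14 of 17 were higher, had a median of 0.25 and 3 genes apart: Cxcr4 at 7.87 and 0 against 9.55 and 9.03 CPM, Krt19 at 3.0 and 3.0 against 3.34 and 4.92 CPM and Otx2 at 229.8 and 257 against 258 and 281 CPM. Krt19 rests on few counts, 8 and 5 in WT1 and WT2 and 7 and 12 in pKO1 and pKO2. Sox17, a defining factor of endoderm, stood at 3.0 and 0 against 2.87 and 4.10 CPM. Without WT1 the list's median was 1.52 and without WT2 it was 0.15. Neuroectoderm genes (7 of 8 higher, median 0.40) had 1 gene apart, the adhesion molecule Ncam1, at 4.87 and 0.6 against 7.17 and 8.62 CPM, and their median was 2.24 without WT1. Targets of BMP signalling (7 tested, median 0.86) had 3 apart, Tbx3 at 3.0 and 0.6 against 6.21 and 6.57 CPM, Msx1 at 30.0 and 17.4 against 33.9 and 57.0 CPM and Id1 at 13.5 and 2.40 against 15.8 and 19.3 CPM, and all 3 were lowest in WT2. Their median was 0.40 without WT2. The genes apart in these lists were all higher in pKO, as were 12.0% of all tested genes. In none of these lists did a gene pass the edgeR test (0 with an adjusted p under 0.05), and the part of WT2 in these differences was not tested.

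**Figure D4:**
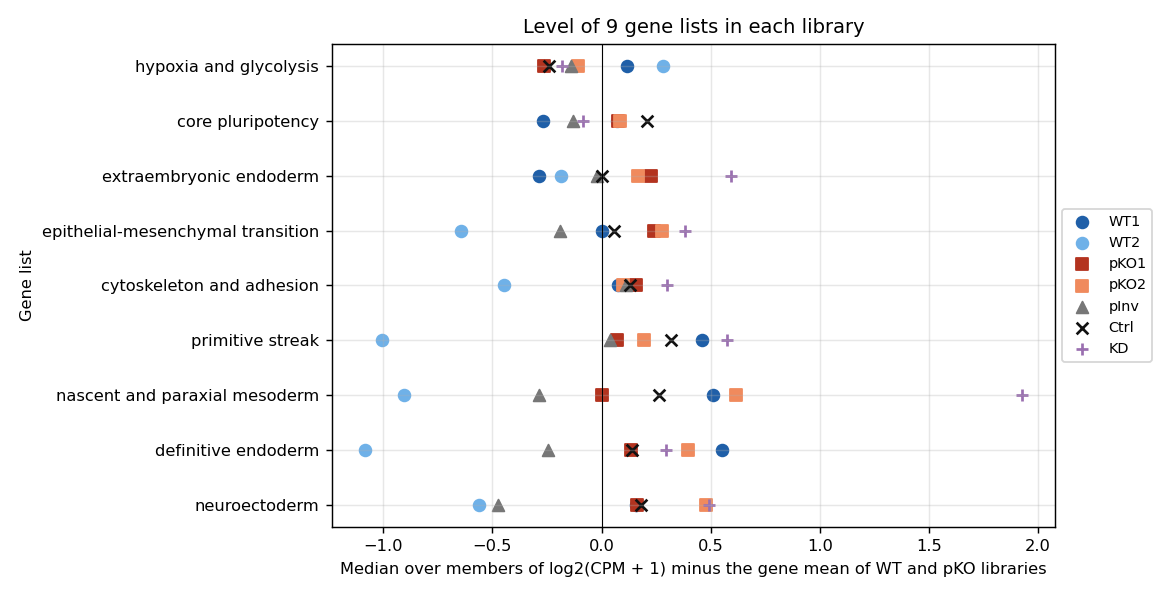
Level of 9 gene lists in each library, as the median over members of log2(CPM + 1) minus the gene's mean over WT1, WT2, pKO1 and pKO2; 1 symbol stands for 1 library. WT2 is the lowest library for primitive streak (−1.01), nascent mesoderm (−0.90) and definitive endoderm genes, whereas WT1 and WT2 lie together above the pKO libraries for hypoxia and glycolysis genes (0.12 and 0.28) and below them for extraembryonic endoderm genes (−0.29 and −0.19).

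Genes of extraembryonic endoderm, the yolk sac lineage that lays down a basement membrane, were higher in pKO in 10 of 12 cases, with a median log2 difference of 0.31. There were 5 apart with pKO higher, against 12.0% of all genes, and 1 with pKO lower. Basement membrane genes made up 3 of the 5: the collagens Col4a1 at 6.75 and 6.0 against 9.55 and 15.6 CPM and Col4a2 at 1.5 and 1.80 against 3.34 and 3.28 CPM, and the laminin chain Lamc1 at 10.9 and 7.80 against 13.9 and 11.9 CPM. Spink1, given above, and the endocytic adaptor Dab2, at 6.0 and 6.60 against 8.12 and 8.21 CPM, were the others. Amn, which with cubilin takes up proteins in visceral endoderm, was apart in the opposite direction, at 25.5 and 23.4 against 21.5 and 16.8 CPM. Several defining markers had 0 counts in all 4 libraries: Afp, Apoa1, Sox7, Hnf4a and Ihh. The level of the list was −0.29 in WT1, −0.19 in WT2, 0.23 in pKO1 and 0.17 in pKO2, with pInv at −0.02, Ctrl at 0.00033 and KD at 0.59. The median was between 0.36 and 0.45 when any 1 library was left out.

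Genes of the epithelial-mesenchymal transition, in which cells of the streak leave the epithelium, were higher in pKO in 10 of 12 cases (median 0.51), with 5 apart and higher and 1 apart and lower, against 12.0% and 12.9% of all genes. Besides Fn1, those higher were the filament protein Vim at 21.0 and 12.0 against 26.3 and 31.2 CPM, the factors Twist1 at 4.12 and 1.80 against 5.25 and 8.62 CPM and Zeb2 at 5.25 and 3.60 against 7.64 and 5.74 CPM, and the membrane protease Mmp14 at 125 and 85.8 against 129 and 161 CPM. The protease Mmp2 was lower, at 8.25 and 12.0 against 5.73 and 6.57 CPM. The list's level was 0.0040 in WT1, −0.64 in WT2, 0.24 in pKO1 and 0.28 in pKO2, and WT2 lay farther from the pKO libraries than WT1 did. The median was 0.35 without WT2 and 1.07 without WT1. Of 30 cytoskeleton and adhesion genes 24 were higher and the median was 0.29. There were 6 apart and higher, against 12.0% of all genes, and 1, the tubulin Tubb5, apart and lower, against 12.9%. Myh9, the heavy chain of nonmuscle myosin, stood at 141 and 106 against 155 and 211 CPM, Cfl1, which severs actin filaments, at 99.3 and 72.6 against 117 and 114 CPM, and Tpm1, tropomyosin, at 179.9 and 146 against 199 and 216 CPM. Without WT2 that median was 0.095 and without WT1 it was 0.69. Feeder fibroblasts share several of these genes. The summed level of the fibroblast markers was 21.7 and 18.6 CPM in WT1 and WT2 and 26.8 and 31.6 CPM in pKO1 and pKO2, with Col1a2, Col6a1 and Fbln2 at 0 in all 4. Of these markers 3 passed the filter, all 3 were higher in pKO and 2, Twist1 and the actin-binding Tagln, were apart. Their part in these differences was not tested.

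Pluripotency genes were higher in pKO in 14 of 19 cases, with a median of 0.17 and 5 genes apart, all higher, against 12.0% of all genes. Those were genes of the naive state and its network at low levels: Fbxo15 at 6.75 and 4.8 against 12.9 and 13.1 CPM, Tfcp2l1 at 3.0 and 0.6 against 6.21 and 7.80 CPM, Tbx3, given above, Tdh at 5.25 and 9.60 against 14.3 and 9.85 CPM and Klf5 at 29.2 and 10.8 against 33.4 and 30.8 CPM. Other genes of the naive state overlapped. Klf2 stood at 4.12 and 10.8 against 4.78 and 5.33 CPM. Klf4 was at 3.75 and 7.80 against 4.30 and 12.7 CPM, and Zfp42 at 6.37 and 24.0 against 13.9 and 17.6 CPM. Tfcp2l1 and Tbx3 each had 1 count in WT2. The core factors overlapped too. Pou5f1 stood at 1359 and 2188 against 1399 and 1721 CPM, Sox2 at 88.1 and 101 against 101 and 96.0 CPM and Nanog at 33.7 and 7.80 against 22.9 and 10.3 CPM. The list's level was −0.27 in WT1 and 0.07 in WT2 against 0.08 in both pKO libraries, so here WT1 was the library that differed, and the median was 0.43 without WT2 and 0.15 without WT1. Of 15 epiblast genes 4 were apart with pKO higher (Sox3, Sox4, Fgf5 and Otx2), with Sox4 at 190.0 and 91.8 against 201 and 202 CPM and Fgf5 at 48.7 and 36.0 against 50.2 and 53.8 CPM, and the median was 0.15.

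**Figure D5:**
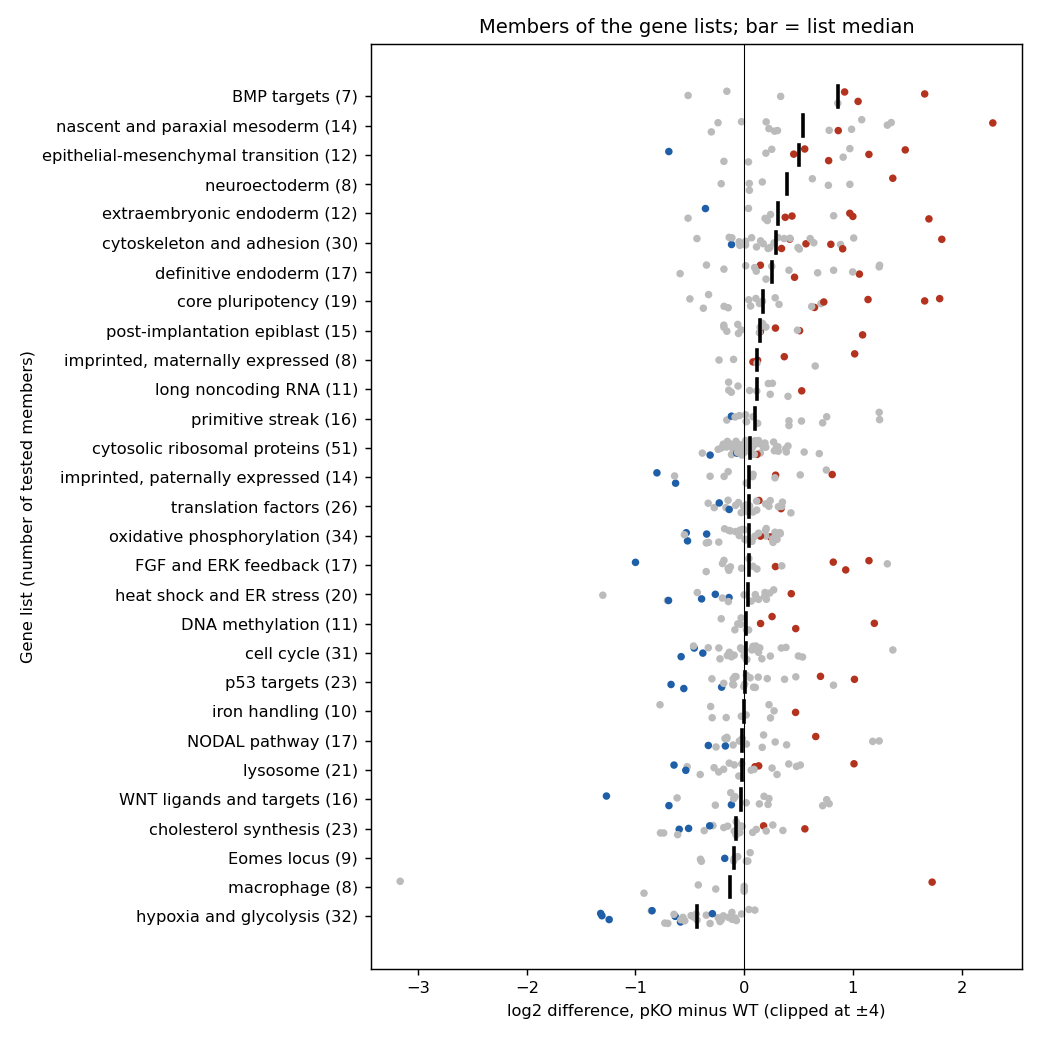
Each point is a tested gene of a list, placed by its log2 difference, pKO minus WT, and the black bar is the list's median; red points have both pKO libraries above both WT libraries, blue points both below, grey points overlap. The number of tested genes stands beside each list; lists with 7 or more tested genes are drawn, and their medians run from −0.44 (hypoxia and glycolysis) to 0.86 (BMP targets).

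Imprinted genes did not share a direction. Of 8 maternally expressed genes 4 were apart and higher in pKO, against 12.0% of all genes, and Rian was the one with a 2-fold difference. The receptor gene Igf2r stood at 12.0 and 18.0 against 18.2 and 20.1 CPM, so that WT2 nearly reached pKO1. Gnas, which encodes the stimulatory G protein subunit, stood at 87.7 and 87.0 against 92.7 and 97.7 CPM. The ubiquitin ligase gene Ube3a stood at 136 and 126 against 136 and 141 CPM, a gap of less than 1 CPM between the sides. Of 14 paternally expressed genes 2 were apart and higher and 2 lower. Mest, a hydrolase gene, was lower at 14.2 and 12.6 against 7.17 and 8.21 CPM, and Ndn, which encodes necdin, at 13.5 and 16.2 against 10.0 and 9.03 CPM. Peg10, derived from a retrotransposon, was higher at 33.7 and 18.6 against 35.4 and 57.4 CPM, and so was the noncoding Kcnq1ot1 at 139 and 168 against 194 and 180.1 CPM. Among 11 genes of DNA methylation 4 were apart, all with pKO higher, against 12.0% of all genes, and 3 of them are given. Zfp57, a zinc finger protein that protects imprints, stood at 4.50 and 2.40 against 6.21 and 10.3 CPM and its corepressor Trim28 at 293 and 284 against 324 and 316 CPM. The dioxygenase gene Tet1 stood at 82.5 and 104 against 108 and 115 CPM. The medians of the maternal, paternal and methylation lists were 0.12, 0.05 and 0.02, near that of all genes.

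Signalling lists other than BMP had medians near that of all genes. Over all genes 12.0% were apart and higher and 12.9% apart and lower. FGF and ERK feedback genes (17 tested, median 0.04) had 4 apart with pKO higher and 1 lower. Dusp6, a phosphatase of ERK, stood at 7.87 and 6.0 against 13.9 and 13.1 CPM, and Spry4, which restrains receptor signalling, at 2.25 and 4.8 against 6.69 and 5.33 CPM. Ier3, an early response gene, was the lower one, at 10.5 and 16.2 against 5.25 and 7.80 CPM. NODAL pathway genes (17 tested, median −0.02) had 1 apart and higher and 2 lower. Foxh1, the DNA-binding cofactor of SMAD proteins, was higher at 55.8 and 28.2 against 73.1 and 61.1 CPM, whereas Smad2 was lower at 28.9 and 27.6 against 23.4 and 26.7 CPM and Smad3 at 14.6 and 12.6 against 11.9 and 9.85 CPM. The ligand Nodal overlapped, at 67.5 and 96.6 against 75.5 and 71.0 CPM, with WT2 the highest.

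Among 23 p53 targets (median 0.0047) 2 were apart and higher and 3 lower, against 12.0% and 12.9% of all genes. Perp, a desmosomal membrane protein, stood at 15 and 6.60 against 22.9 and 22.2 CPM and Trp53inp1 at 21.0 and 18.0 against 36.8 and 27.1 CPM. Tigar, which restrains glycolysis, was lower at 18.7 and 19.2 against 11 and 12.7 CPM, with little spread within either side. Cell cycle genes (31 tested, median 0.02) had 3 apart, all with pKO lower, a share below the 12.9% of all genes. Ccnd2, a G1 cyclin, stood at 243 and 172 against 121 and 156 CPM. Birc5, or survivin, stood at 404 and 453 against 305 and 317 CPM and the mitotic cyclin Ccnb2 at 34.9 and 30.6 against 29.1 and 21.3 CPM. No gene of the signalling, p53 or cell cycle lists had an adjusted p under 0.05 (0 in edgeR's test).

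Lists of housekeeping functions differed little, and their apart counts stand beside 12.0% higher and 12.9% lower over all genes. Ribosomal protein genes (51 tested) had a median of 0.05, oxidative phosphorylation (34) 0.04 and translation factors (26) 0.05, with 1, 2 and 2 genes apart and higher and 2, 3 and 2 apart and lower. Heat shock and stress genes (20 tested, median 0.03) had 4 apart and lower and 1 higher, the small heat shock protein Hspb1, at 93.7 and 88.2 against 123 and 123 CPM. Single genes outside these themes were apart as well: Malat1, a nuclear noncoding RNA, at 2138 and 1573 against 2444 and 2914 CPM, and, among 5 tested germ cell genes, Tex15 with pKO higher at 9.0 and 13.2 against 21.5 and 20.5 CPM and Sycp3 with pKO lower at 4.12 and 4.20 against 2.87 and 3.69 CPM. Markers of macrophages summed to 71.2, 137, 75.5 and 96.8 CPM in WT1, WT2, pKO1 and pKO2, with 8 of 17 at 0 in all 4, Csf1r and Adgre1 among them. Trophoblast markers summed to 39.4, 6.60, 28.2 and 30.8 CPM, lowest in WT2, with 5 of 12 at 0. Of them 1 passed the filter, and it alone held 36.0, 1.80, 24.8 and 25.4 CPM, so these sums rest largely on a single gene.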

How the data were processed

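Polyadenylated RNA was made into QuantSeq 3′ libraries, per the labels' protocols. For each library the authors deposited RSEM expected counts, TPM and FPKM per gene, per the file headers, made against mm9 with RSEM of no stated version, per the submitters' processing notes. The deposited expected counts carried no normalization, and rounding to integers was done here. TPM, which the authors' RSEM run scales by length to a constant sum, served 1 kind of alternative, and the authors' FPKM columns were not used. Of strand, batches and read handling nothing is given in the sources used here, so overlapping and antisense genes cannot be told apart.

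Names came from a RefSeq gene table of GRCm38.p6, a later build, used for names and gene order: of 24990 features 23447 were named as single genes, 1 (Platr11) by its symbol, 375 as merged genes and 1141 as further copies, and 26 had no name. Among 766 entries of the gene lists, 741 were found as single rows, 18 within merged rows and 7 nowhere. Promoters and miRNAs were matched by symbol or name in RefSeq tables of the same build, and 29 of the 32 tested hypoxia genes had a promoter entry.

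The rounded counts went into edgeR 4.0.16 (R 4.3.3): filterByExpr by group kept 10265 genes, libraries were scaled by TMM, and 1 quasi-likelihood fit without covariates took all 7 libraries with a coefficient per title group, which leaves 2 residual degrees of freedom for a gene's spread, beside a prior of 5.86 (common biological coefficient of variation 0.294). Fitted folds used a prior count of 0.125, and a call needed a p under 0.05 after Benjamini-Hochberg adjustment. Library totals are given with the results, the precision at low counts is that of the counts themselves, and intervals and floors cover counting error only. Alternatives were RLE scaling, no filter, a fit of the 4 libraries alone, a replicate block, removal of the largest row, each library left out, DESeq2 1.42.0, limma 3.58.1 on counts (voom) and on log2(TPM + 1) or log2(TPM + 0.1), and groups by the genotype field.

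The comparison, the 36 gene lists, of which 35 held a tested gene, and the tests were chosen with earlier results of these data known. Named are Eomes, the 15 genes with the smallest p in each direction at a mean of 5 CPM or more, the 8 at 50 CPM or more with the widest gap between sides, and up to 4 apart genes per list. Other genes named, such as T, Slc16a3, Pou5f1 and the rows of the Dlk1–Dio3 region, were chosen after their values were seen. Values of a few genes that the rule takes are not reported here.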

Additional observations from a re-analysis of the deposited data

How the results depend on the processing

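With 2 libraries a side, calls rest on little replication, and at 0.375 to 0.600 CPM per count a gene of a few CPM is a handful of reads, where no difference could be shown. No gene was called under RLE scaling, with the 4 libraries fitted alone, without the largest row, by DESeq2 (18 genes at an unadjusted p under 0.05), limma-voom (113), limma on log2(TPM + 1) (153) or log2(TPM + 0.1) (132), or with groups by the genotype field (87). Without the filter on low counts 9 of 16702 rows were called by edgeR: Fn1 (adjusted p = 0.0105), 2210408I21Rik (adjusted p = 0.0115), Gstp1 and Zfp600 among them, and 4 further copies. Leaving out a library gave 0 to 7 calls. Genes with sides apart numbered 2034 higher and 1797 lower without the filter, and 2634 to 3982 higher and 2511 to 3743 lower with a library left out, since fewer libraries overlap less often.

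Whether a replicate number marks a shared culture or batch is not stated, and the samples are treated as sharing only a number: the difference WT2 minus WT1 correlated with pKO2 minus pKO1 at 0.311 across 10265 genes, with only 2 pairs. A fit with the number as a replicate block called 0 genes, with 224 at an unadjusted p under 0.05.

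On log2(TPM + 1) the median was 0.36 for pluripotency and −0.30 for hypoxia and glycolysis genes. With a library left out, medians ran from −0.54 to −0.29 for hypoxia and glycolysis, 0.14 to 0.43 for pluripotency, 0.36 to 0.45 for extraembryonic endoderm, 0.35 to 1.07 for epithelial-mesenchymal transition, 0.034 to 2.61 for nascent mesoderm and 0.095 to 0.69 for cytoskeleton and adhesion. Of the named genes, Eomes ran from −0.21 without WT2 (−0.19 without pKO2) to 0.33 without WT1, T from −0.0020 without WT2 to 2.41 without WT1, Mixl1 from −0.43 without WT2 (−0.034 without pKO1) to 3.32 without WT1, and Eef1a1 from −0.71 without pKO1 (−0.37 without WT2) to 1.99 without WT1. None of these genes passed in any fit. The cause of these changes was not tested.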
